A study of Mus musculus with 13 samples.

Results

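Fine particulate matter (PM2.5) is airborne particulate small enough to be inhaled deeply, and the olfactory bulb is the first relay of smell in the brain. The comparison described here is that of olfactory bulbs from mice given the low dose of PM2.5 with the control bulbs of the same set. Its members are the libraries whose titles carry the words low or control together with the mark 1st: 3 low-dose and 4 control libraries, 7 of the 13 libraries of the series, with all genes of the table. The mice were wild-type C57BL/6 animals of 7 to 8 weeks. Controls had no treatment, with no vehicle named, and exposed mice are labelled 3 mg/kg/3 day PM2.5. The other 6 libraries, marked 2nd, are 3 controls and 3 bulbs of mice labelled 10 mg/kg/3 day PM2.5, of the same strain, genotype and age. How the particles were given, what the 3 days describe, and whether each library came from 1 animal are not given in the labels or in any other source used. The p-values therefore measure the spread between these libraries, which may be partly technical.

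Axons of olfactory sensory neurons enter the bulb from the nasal lining and end on mitral and tufted cells in the glomeruli, which are surrounded by olfactory ensheathing glia, astrocytes and microglia. Inhibitory granule and periglomerular cells shape the output, and their activity switches on immediate early genes such as Fos, Arc and Npas4 within minutes. Inflammatory signals that reach the brain are met by microglia, perivascular macrophages, astrocytes and endothelium, which make chemokines, complement components and cytokine receptors.

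The 7 libraries held 13032834 to 14095284 (controls) and 14336721 to 14665696 (low dose) gene counts, with 20801 to 21286 genes counted and 2.11% to 2.65% of counts from the mitochondrial genome. Xist, an RNA made from the inactive X, was at 121.7 to 148.5 FPKM (fragments scaled by gene length and library total) in all 7, and the summed level of 4 Y-linked genes was at most 0.0197 FPKM. In the 6 libraries of the 2nd set Xist was at most 0.0294 FPKM and the Y-linked sum at least 16.0 FPKM. The series text describes male mice, so the 1st set goes against it in all 7 libraries, controls and exposed alike. The tissue label was borne out by its markers: the interneuron genes Gad1 and Calb2 ranged over 166 to 199 and 244 to 287 FPKM, and the mitral and tufted cell gene Cdhr1 over 126 to 136 FPKM. Exposed and control libraries did not separate on the first principal component, where control replicate 4 lay among the low-dose libraries. In 2 libraries some lists stood apart. Nasal epithelium genes were highest in control replicate 1 (Cyp2a5 at 7.495 FPKM, against 0.161 to 0.518 in the other controls), and several glucocorticoid and acute phase genes were highest in low-dose replicate 1, so counts that rest on these are also given without them.

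Few genes differed between low-dose and control bulbs: Npas4 was lower, and Ccl12, C3, Il4ra, Osmr, Hif3a, Rab7, Atp6ap1 and Sarm1 were higher in the low-dose bulbs. Of 17045 genes tested, 9 passed an adjusted p of 0.05 in edgeR's quasi-likelihood test with Benjamini-Hochberg adjustment, which is 0.0528% of the genes. Of these, 8 were higher (0.0469%) and 1 was lower (0.00587%). At an unadjusted p under 0.05, 427 genes were higher (2.51%) and 484 lower (2.84%), and the median log2 fold change over all genes was -0.0024. A joint fit of all 13 libraries, with 1 estimate of the spread for both sets, called 0 genes, with 429 genes at an unadjusted p under 0.05. DESeq2 called 41 genes, 25 higher and 16 lower, which included all 9. With each of the 7 libraries left out in turn, 7 to 13 genes were called. Npas4, Ccl12, Atp6ap1 and Rab7 were among them in all 7 such fits, whereas Sarm1 passed in 4, Hif3a and Il4ra in 2 each, and C3 and Osmr in 1 each.

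**Figure D1:**
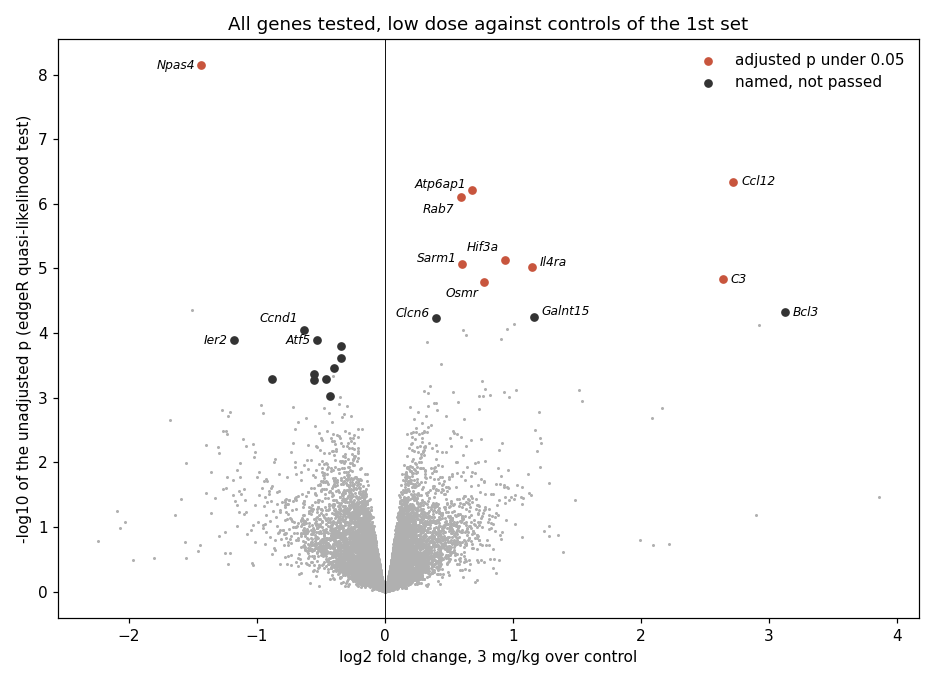
Log2 fold change of the low dose over the controls (x axis) and -log10 of the unadjusted p (y axis) for the 17045 genes tested. Red points are the 9 genes that passed, black points 14 named genes that did not. Npas4 stands alone on the left, and Ccl12 and C3 lie farthest right among the genes that passed.

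Npas4 encodes a transcription factor that is induced in neurons by activity and calcium entry and that shapes inhibitory synapses. The gene lies on chromosome 19, from 4984355 to 4989971 (GRCm38, minus strand). Its level was 23.3, 21.99, 26.1 and 25.6 FPKM in the 4 controls and 10.6, 8.60 and 7.65 FPKM in the 3 low-dose libraries. The groups did not overlap, and the highest exposed library stood below 0.5 of the lowest control. The log2 fold change was -1.44 ± 0.10 (SE), to 0.369 of the control level, with an adjusted p of 0.000122 in edgeR's test. In the joint fit of 13 libraries the adjusted p was 0.0737.

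Because Npas4 was the single gene that fell, its promoter is shown, from 250 bases before the RefSeq start site to 30 bases after it (RefSeq, GRCm38.p6, chr19:4989942-4990221, minus strand), 5′ to 3′ along the gene. Capitals mark the 5-base core of the cAMP response element (CRE), TGACG, the element bound by CREB.
Npas4: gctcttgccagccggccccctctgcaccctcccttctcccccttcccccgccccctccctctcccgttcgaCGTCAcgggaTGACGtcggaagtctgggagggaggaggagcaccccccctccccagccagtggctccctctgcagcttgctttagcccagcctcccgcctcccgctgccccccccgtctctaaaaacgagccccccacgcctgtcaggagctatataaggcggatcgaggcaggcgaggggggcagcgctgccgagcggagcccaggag
The core occurs at -179 on the opposite strand and at -169 on the gene's strand, counted from the start site, so the 2 copies lie on opposite strands. In the whole window of 300 bases, 20.8% of all 32851 RefSeq promoters held this core on either strand, against 3 of the 9 genes that passed (Npas4, Rab7 and Sarm1). The full CRE (TGACGTCA), which contains the core, was in the window of none of the 9 and in 1.79% of promoters. The CArG box, the element bound by serum response factor, was likewise in none of the 9 and in 1.63% of promoters. Matches of letters are a description and say nothing of binding.

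Most other immediate early genes stood lower in the exposed bulbs, without passing. Of 38 listed, 37 were tested, and 33 had a log2 fold change below 0, as did 50.7% of all genes. The median was -0.27. Npas4 passed, 9 members were lower at an unadjusted p under 0.05, and 7 had all exposed libraries below all controls in counts scaled by library size, which 3.05% of all genes had. At that unadjusted p, 2.84% of all genes were lower. Without low-dose replicate 1, 35 of 37 were below 0 and 11 were lower at an unadjusted p under 0.05 (2.38% of all genes). With each library left out in turn, the median ran from -0.38 to -0.20.

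The controls differed widely among themselves for these genes, with replicates 1 and 4 low and replicates 2 and 3 high. Per library, the median of the list relative to the control mean was -0.26, 0.15, 0.30 and -0.26 in the controls. It was -0.18, -0.37 and -0.26 in the exposed libraries, so the list medians of the groups overlapped. Fos, the partner of Jun in the AP-1 factor, was at 18.01, 31.3, 38.6 and 23.9 FPKM in the controls and at 17.8, 8.74 and 9.02 FPKM after exposure (log2 fold change -1.24 ± 0.40, adjusted p = 0.872 in edgeR's test). Arc, which acts in the removal of glutamate receptors from synapses, was at 37.8, 54.6, 72.0 and 42.7 FPKM in the controls and at 32.7, 19.2 and 19.2 FPKM after exposure (-1.13 ± 0.33, adjusted p = 0.823). In both, low-dose replicate 1 lay close to the lowest control and the other 2 exposed libraries lay well below it. Ier2 was at 9.83, 13.7, 16.6 and 12.9987 FPKM in the controls against 7.30, 4.67 and 5.64 FPKM, and its adjusted p was 0.101. Btg2, an antiproliferative gene, was at 15.4 to 23.9 FPKM in the controls and at 8.53 to 13.4 FPKM in the exposed libraries, with a log2 fold change of -0.95 ± 0.20 and an adjusted p of 0.439. Egr1 and Nr4a1, transcription factors of the same early wave, overlapped between groups: Egr1 was at 28.01 to 56.2 FPKM in controls and 19.5 to 31.8 FPKM after exposure, and Nr4a1 at 40.1 to 103 and 39.8 to 58.3 FPKM. Npas4 differed from these in the narrow range of its controls. Ier3, a stress-induced survival gene that is also a target of NF-kB, went the other way, at 2.32 to 2.99 FPKM in the controls and 6.33, 3.45 and 5.16 FPKM in the exposed libraries, with a log2 fold change of 0.93 ± 0.21 that did not pass (adjusted p = 0.350).

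**Figure D2:**
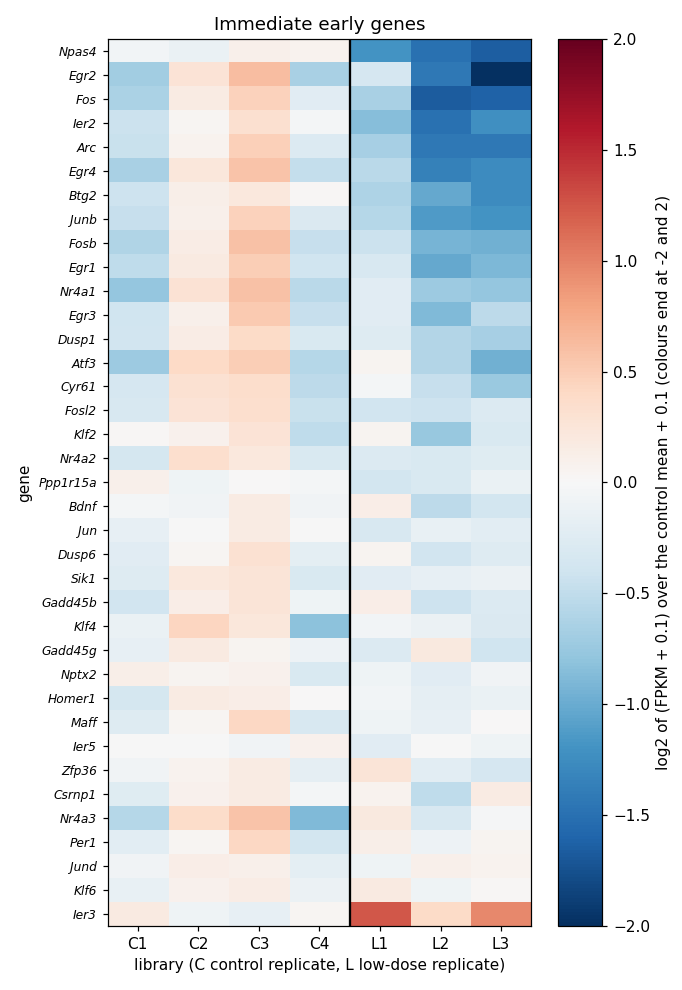
Log2 of FPKM + 0.1 over the control mean + 0.1 for the 37 immediate early genes tested (rows, ordered by fold change) in each of the 7 libraries (columns). Blue is lower and red higher than the control mean. The top rows are darkest in low-dose replicates 2 and 3, and Ier3 at the bottom is higher in all 3 exposed libraries. By the list medians, control replicates 1 and 4 lie on the blue side with the exposed libraries, and control replicates 2 and 3 on the red side.

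Ccl12 was the chemokine gene that passed. It encodes a chemokine that draws monocytes through the receptor Ccr2, and lies on chromosome 11, from 82101845 to 82103400 (plus strand). Its level was 0.426, 0.553, 0.631 and 0.485 FPKM in the controls and 4.02, 3.80 and 2.75 FPKM after exposure, with all 3 exposed libraries more than 4-fold over the highest control. The log2 fold change was 2.72 ± 0.29, or 6.59-fold, with an adjusted p of 0.00331 in edgeR's test. Of the 28 listed chemokines and receptors, 13 had enough counts to be tested. Of these, 4 were higher at an unadjusted p under 0.05 with no overlap between groups, among them Ccl12 and the receptors Ccr2 and Ccr1, all at low levels. Over all genes, 2.51% were higher at that p and 3.56% had all exposed libraries above all controls. The chemokine gene Cxcl12 was lower at that p, at 4.04 to 4.76 FPKM in controls and 3.83 to 4.13 FPKM after exposure. Ccr2, the receptor of Ccl12 on monocytes, was at 0.0606 to 0.126 FPKM in the controls and at 0.151, 0.134 and 0.156 FPKM after exposure (log2 fold change 0.88 ± 0.30, adjusted p = 0.769). Ccl2, a close relative of Ccl12, was too low to be tested, at 0 to 0.223 FPKM in controls and 0.0731 to 0.321 FPKM in exposed libraries. Cxcl10, a chemokine induced by interferon, overlapped between the groups at 0.0763 to 0.313 and 0.278 to 0.386 FPKM.

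Genes of cytokine receptor chains were also among those that passed. Il4ra, the chain shared by the receptors of interleukin-4 and interleukin-13, lies on chromosome 7, from 125552120 to 125579474 (plus strand), where Gm44876 is annotated on the opposite strand. It was at 0.838, 0.745, 0.651 and 0.667 FPKM in the controls and at 1.27, 1.56 and 1.99 FPKM after exposure, a log2 fold change of 1.15 ± 0.16 with an adjusted p of 0.0234. Osmr, the receptor chain for oncostatin M that signals with Il6st and Stat3, lies on chromosome 15, from 6813577 to 6874969 (minus strand). It was at 0.871, 0.644, 0.702 and 0.786 FPKM in the controls and at 1.29, 1.32 and 1.24 FPKM after exposure, a log2 fold change of 0.77 ± 0.11 with an adjusted p of 0.0308. For both genes the lowest exposed library lay above the highest control, and the exposed libraries of Osmr were within 0.1 FPKM of each other. The signalling partner Stat3 differed little, with a log2 fold change of 0.10. It was at 5.40 to 6.30 FPKM in controls and 6.29 to 6.54 FPKM after exposure. Socs3, the feedback inhibitor of this pathway, was at 1.28 to 1.77 FPKM in controls and 2.78, 1.91 and 2.57 FPKM after exposure (log2 fold change 0.59 ± 0.17, adjusted p = 0.584).

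These are the promoters of the 2 receptor genes over the same window as above (RefSeq, GRCm38.p6), shown because each was the only gene of the 9 with a match to one of the inflammatory motifs searched. In Il4ra (chr7:125552021-125552300, plus strand), capitals mark an NF-kB site, which begins at base 21 after the start on the opposite strand. In Osmr (chr15:6874284-6874563, minus strand), capitals mark an AP-1 site, TGANTCA, beginning at base 4 after the start on the gene's strand.
Il4ra: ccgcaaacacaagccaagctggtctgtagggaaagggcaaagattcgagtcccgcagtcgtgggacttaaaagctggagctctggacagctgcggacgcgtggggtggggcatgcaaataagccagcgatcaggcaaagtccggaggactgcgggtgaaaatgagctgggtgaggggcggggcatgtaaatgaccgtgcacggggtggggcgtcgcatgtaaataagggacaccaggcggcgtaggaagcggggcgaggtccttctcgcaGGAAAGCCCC
Osmr: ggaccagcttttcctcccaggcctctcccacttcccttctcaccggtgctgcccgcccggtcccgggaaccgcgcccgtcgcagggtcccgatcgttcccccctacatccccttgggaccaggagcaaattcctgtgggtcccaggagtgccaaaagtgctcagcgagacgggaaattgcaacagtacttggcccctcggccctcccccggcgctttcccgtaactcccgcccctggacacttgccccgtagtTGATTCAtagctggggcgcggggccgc
Of all RefSeq promoter windows, 4.51% held the NF-kB site and 7.81% the AP-1 site on either strand. The palindromic STAT site TTCNNNGAA was in 8.30% of the windows and in none of the 9.

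Most complement genes stood higher after exposure, and C3 passed. C3, the component on which all 3 complement pathways converge, lies on chromosome 17, from 57203970 to 57228136 (minus strand). It was at 0.108, 0.0751, 0.0874 and 0.0896 FPKM in the controls and rose to 0.624, 0.270 and 0.810 FPKM, a log2 fold change of 2.64 ± 0.39 with an adjusted p of 0.0308. The exposed libraries varied 3-fold among themselves, but the lowest was above every control. Of 21 listed complement genes 19 were tested, and 18 of them had a log2 fold change above 0, as did 49.3% of all genes. The median was 0.21. At an unadjusted p under 0.05, 7 were higher (2.51% of all genes) and 0 lower (2.84% of all genes). All exposed libraries lay above all controls in 9, as in 3.56% of all genes. The chains of C1q, the recognition molecule made by microglia, moved side by side. C1qa was at 24.0 to 24.8 FPKM in the controls and 36.3, 27.9 and 30.7 FPKM after exposure, with a log2 fold change of 0.38 ± 0.09 that did not pass (adjusted p = 0.395). C1qb was at 22.3 to 28.1 FPKM in controls and 43.0, 29.5 and 36.5 FPKM after exposure, and C1qc at 9.38 to 10.9 and 13.5, 11.5 and 14.6 FPKM. C4b, the substrate of the C1 complex, was at 13.2 to 13.9 FPKM in controls and 20.02, 14.9 and 16.3 FPKM after exposure. In C1qa, C1qb and C4b, low-dose replicate 1 was the highest library. Without it, 16 of 19 complement genes were above 0 and 6 were higher at an unadjusted p under 0.05 (2.02% of all genes). C3ar1, the receptor of the C3a fragment, was at 0.610 to 0.760 FPKM in the controls and 1.52, 1.04 and 1.05 FPKM after exposure (log2 fold change 0.82 ± 0.19, adjusted p = 0.353).

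Homeostatic microglia genes gave no such shift. Of 15 tested, 9 were above 0, the median was 0.014, and 0 passed or reached an unadjusted p under 0.05 in either direction in edgeR's test. Summed over the list, they stood at 142 to 149 FPKM in the controls and 140 to 151 FPKM after exposure. In bulk tissue, fewer cells of a type and less RNA per cell cannot be told apart.

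Hif3a encodes a hypoxia-inducible factor subunit whose transcript is also induced by glucocorticoids, and lies on chromosome 7, from 17031507 to 17062427 (minus strand), with 4833404L02Rik on the opposite strand. Its level was 0.967, 0.915, 1.24 and 1.06 FPKM in the controls and 2.22, 1.82 and 1.98 FPKM after exposure. The groups were well apart, with a log2 fold change of 0.94 ± 0.13 and an adjusted p of 0.0234. Of 18 glucocorticoid-responsive genes, 14 were above 0 (49.3% of all genes) and 4 were higher at an unadjusted p under 0.05 (2.51% of all genes), with a median of 0.19. These counts depended on low-dose replicate 1. Fkbp5, a chaperone that restrains the glucocorticoid receptor, was at 6.94 FPKM in that library, against 3.36 and 3.38 FPKM in the other exposed libraries and 2.76 to 3.25 FPKM in the controls. The metallothionein Mt2 was at 248.6 FPKM there, against 92.3 and 105 FPKM, and 87.2 to 106 FPKM in the controls. Without that library 9 of 18 were above 0, the median was 0.0059, and 3 were higher at an unadjusted p under 0.05. Plin4, a lipid droplet coat protein, was above the controls in all 3 exposed libraries (0.813, 0.249 and 0.253 FPKM against 0.077 to 0.150 FPKM), as was the kinase gene Map3k6 (1.22, 0.474 and 0.538 FPKM against 0.227 to 0.420 FPKM). Neither passed, with adjusted p-values of 0.468 and 0.615. In the list, 4 of the 18 had all exposed libraries above all controls (3.56% of all genes).

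Rab7, Atp6ap1 and Sarm1 rose by similar small factors with narrow spread. Rab7 encodes the small GTPase that takes late endosomes to lysosomes, and lies on chromosome 6, from 87999106 to 88045270 (minus strand), with Gm5577 on the opposite strand. It was at 14.6, 17.4, 16.7 and 16.5 FPKM in the controls and at 25.2, 25.1 and 23.2 FPKM after exposure, 1.51-fold higher (log2 fold change 0.59 ± 0.07, adjusted p = 0.00331). Atp6ap1, an accessory subunit of the proton pump that acidifies those compartments, lies on chromosome X, from 74297097 to 74304721 (plus strand). It was at 18.8, 23.1, 20.8 and 19.6 FPKM in the controls and at 35.2, 32.9 and 30.9 FPKM after exposure, 1.603-fold higher (0.68 ± 0.07, adjusted p = 0.00331). Sarm1, the NAD-cleaving enzyme that drives the degeneration of injured axons, lies on chromosome 11, from 78472330 to 78497754 (minus strand). It was at 4.08, 4.31, 3.97 and 3.51 FPKM in the controls and at 5.64, 6.13 and 6.34 FPKM after exposure, 1.52-fold higher (0.60 ± 0.08, adjusted p = 0.0234). In none of the 3 did any exposed library reach down to a control.

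The list of endosome and lysosome genes, which holds Rab7 but neither Atp6ap1 nor Clcn6, showed no common direction. Of 16 tested, 7 were above 0, Rab7 alone passed and alone had an unadjusted p under 0.05, and the median was -0.018. Rab5a, the GTPase of early endosomes, was at 30.1 to 36.4 FPKM in controls and 29.6 to 32.3 FPKM after exposure, and the lysosomal membrane gene Lamp1 at 114 to 122 and 111 to 123 FPKM.

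**Figure D3:**
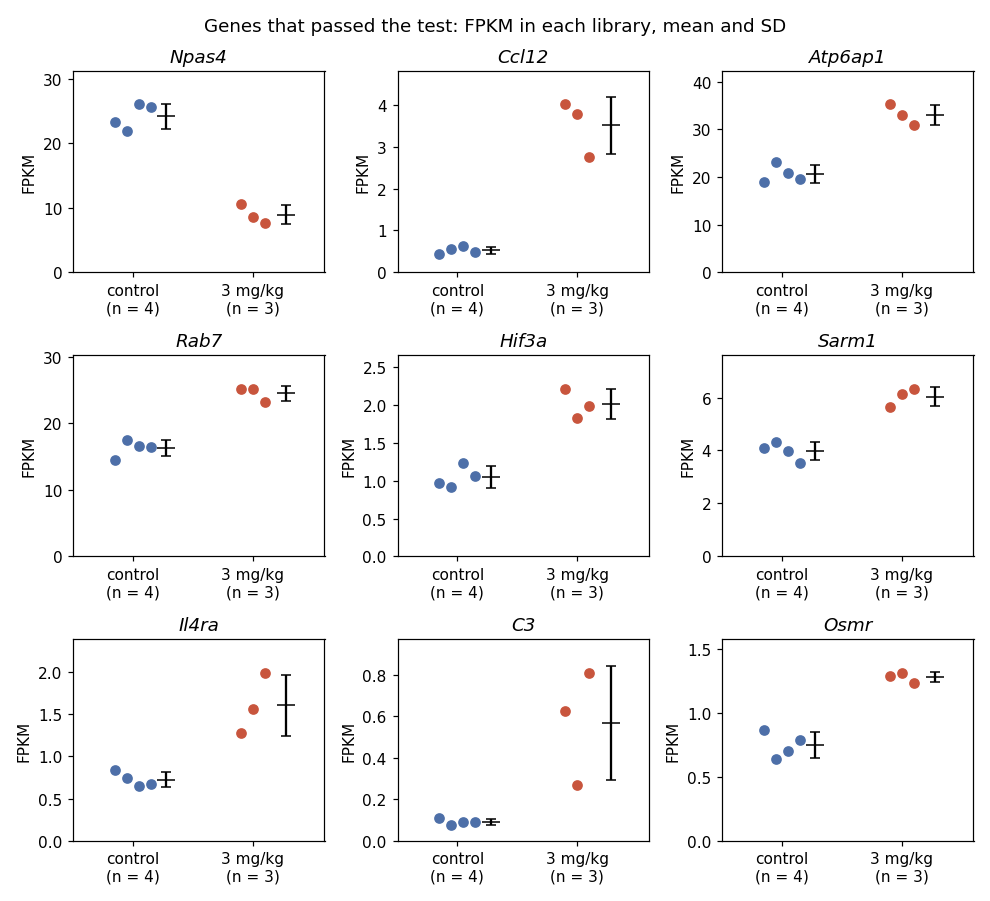
FPKM of the 9 genes that passed (y axis, from 0) in the 4 control (blue) and 3 low-dose libraries (red), with mean and SD in black. In each panel the groups do not overlap; the spread of C3 after exposure (0.270 to 0.810) is wide and that of Osmr (1.24 to 1.32) narrow.

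Genes of the inflammatory acute phase stood higher at low levels, without passing. Of 22 genes of NF-kB feedback and the acute phase that were tested, 18 were above 0 (49.3% of all genes) and 8 were higher at an unadjusted p under 0.05 (2.51% of all genes), with a median of 0.19. Without low-dose replicate 1, 17 were above 0, 7 were higher at that p and the median was 0.10. Bcl3, a nuclear partner of NF-kB, was at 0.148, 0.137, 0 and 0.060 FPKM in the controls and at 1.03, 0.595 and 0.661 FPKM after exposure, with a log2 fold change of 3.12 ± 0.50 and an adjusted p of 0.0741. Lrg1, a secreted glycoprotein of vessels and neutrophils, was at 0.108 to 0.368 FPKM in controls and 2.78, 0.774 and 2.08 FPKM after exposure (2.92 ± 0.49, adjusted p = 0.0844). Il1r1, the interleukin-1 receptor, was at 0.318 to 0.5003 FPKM in controls and 0.924, 0.760 and 0.811 FPKM after exposure (0.95 ± 0.17, adjusted p = 0.0854). For all 3 the groups did not overlap. In the list, 7 of the 22 tested had all exposed libraries above all controls (3.56% of all genes). Lcn2, an iron-binding protein released in inflammation, was at 2.89 FPKM in low-dose replicate 1 but at 0.244 and 0.381 FPKM in the other 2 exposed libraries, with 0 to 0.219 FPKM in the controls. Sele, the endothelial selectin that captures rolling leukocytes, had 0 counts in all 4 controls and 5, 4 and 4 counts after exposure. That is at least 5.47-fold higher against a floor of 3 counts over the control group. Sele fell under the count filter and was not tested, and it was the only gene at 0 in all controls with at least 3 counts in each exposed library.

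Some antigen presentation and macrophage genes also stood higher, without passing. Of 16 antigen presentation genes 11 were above 0, with a median of 0.17, and 3 class II genes (H2-Ab1, Cd74 and H2-Eb1) were higher at an unadjusted p under 0.05, as were 2.51% of all genes. H2-Ab1 was at 1.30 to 1.597 FPKM in controls and 2.52, 2.10 and 2.60 FPKM after exposure (log2 fold change 0.76 ± 0.17, adjusted p = 0.282). Without low-dose replicate 1 the median of the list was 0.024 and 1 member was higher at that p. Of 11 perivascular macrophage genes tested, 6 were above 0 and 5 below, with a median of 0.14, and 3 were higher at that p (F13a1, Siglec1 and Cd163). Without control replicate 1, 9 were tested and the median was 0.54. F13a1 was at 0.869 to 1.11 FPKM in controls and 1.75, 1.26 and 1.77 FPKM after exposure, and Siglec1 at 0.314 to 0.430 and 0.551 to 0.626 FPKM. Mrc1, a defining gene of these cells, overlapped at 1.58 to 2.15 and 1.59 to 2.13 FPKM. Neutrophil and lymphocyte genes were near the detection limit, with 4 of 13 and 1 of 12 listed genes tested, and Ly6g at 0 to 0.171 FPKM in the 7 libraries. Of the 4 neutrophil genes tested, 3 were above 0 (49.3% of all genes), with a median of 0.50. None of the 4 reached an unadjusted p under 0.05. Summed over the list, neutrophil genes were at 3.09 to 4.35 FPKM in controls and 4.26 to 5.71 FPKM after exposure. Haemoglobin and other red cell genes summed to 28.8 to 79.4 FPKM in controls and 63.1 to 84.9 FPKM after exposure. Their part in these differences was not tested.

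Among reactive astrocyte genes Osmr alone passed. Of 26 tested, 18 were above 0 (49.3% of all genes), with a median of 0.12. At an unadjusted p under 0.05, 4 were higher (2.51% of all genes) and 0 lower, and 4 had all exposed libraries above all controls (3.56% of all genes). Without low-dose replicate 1, 14 were above 0, 2 were higher and 1 was lower at that p, and the median was 0.074. Gfap, the intermediate filament of astrocytes, was at 46.7 to 58.6 FPKM in the controls and 61.4, 49.7 and 70.2 FPKM after exposure (log2 fold change 0.22 ± 0.13, adjusted p = 0.936). Serpina3n, a protease inhibitor of reactive astrocytes, was at 7.08 to 10.2 FPKM in controls and at 25.9, 8.62 and 15.03 FPKM after exposure, so that replicate 2 lay within the control range.

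Transcripts of the incoming sensory axons stood lower. All 16 olfactory sensory neuron genes tested had a log2 fold change below 0, with a median of -0.33, but 0 passed in edgeR's test, 4 were lower at an unadjusted p under 0.05 (2.84% of all genes) and 2 had groups that did not overlap (3.05% of all genes). Omp, the marker of mature sensory neurons, was at 67.8, 60.3, 52.2 and 74.6 FPKM in controls and 56.6, 42.2 and 45.8 FPKM after exposure (log2 fold change -0.40 ± 0.14, adjusted p = 0.8289). Gnal, the olfactory G protein, which striatal and bulb neurons also express, was at 13.7 to 16.4 and 12.1 to 12.6 FPKM (-0.24 ± 0.07, adjusted p = 0.615). Per library, the median of the list relative to the control mean ran from -0.33 to 0.32 among the controls and from -0.44 to -0.17 among the exposed, so the controls spanned more than the difference. Control replicate 1, which carried most nasal epithelium transcripts, also had the highest median for these genes. Without it 14 of 16 were below 0, the median was -0.19 and 2 were lower at an unadjusted p under 0.05. Without low-dose replicate 1, 15 were below 0, the median was -0.53 and 4 were lower at that p. Summed nasal epithelium transcripts ranged over 1.39 to 17.4 FPKM in controls and 0.858 to 6.61 FPKM after exposure. Olfactory ensheathing glia genes were below 0 in 7 of 8 (median -0.15), and 0 passed. At an unadjusted p under 0.05, 1 was lower (2.84% of all genes) and 1 higher (2.51% of all genes). The lower was Fabp7, a fatty acid binding protein, at 124 to 179 FPKM in controls and 107 to 124 FPKM after exposure (-0.42 ± 0.12, adjusted p = 0.641). The higher was Matn2, at 9.87 to 10.7 FPKM in controls and 10.8 to 12.3 FPKM after exposure (0.20 ± 0.07, adjusted p = 0.793).

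Myelin genes also stood lower, in 12 of 12 tested (50.7% of all genes), with a median of -0.22. At an unadjusted p under 0.05, 4 were lower (2.84% of all genes), and 0 passed in edgeR's test. In 2 of them all exposed libraries lay below all controls (3.05% of all genes). Per library, the median of the list relative to the control mean ran from -0.14 to 0.085 among the controls. It was -0.23, -0.38 and -0.046 in the exposed libraries, so the list medians of the groups overlapped. Ugt8a, which makes the myelin lipid galactosylceramide, was at 3.71 to 4.36 FPKM in controls and 2.37, 2.87 and 3.38 FPKM after exposure (log2 fold change -0.48 ± 0.12, adjusted p = 0.417). The 12 genes stayed below 0 without low-dose replicate 1 and without control replicate 1, but 2 and 3 of them, respectively, were then lower at that p.

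The marker lists of resident neurons differed little in their medians. Granule cell and interneuron genes had a median of 0.060, with 12 of 16 above 0 and 0 at an unadjusted p under 0.05 in either direction. Mitral and tufted cell genes had a median of -0.030, with 3 of 9 above 0 and Tbr1 alone lower at an unadjusted p under 0.05. Th, the rate-limiting enzyme of dopamine synthesis in periglomerular cells, was at 38.6 to 46.0 FPKM in controls and 42.9 to 48.9 FPKM after exposure (log2 fold change 0.15 ± 0.07, adjusted p = 0.923). Responses commonly linked to particles also had small medians. The 20 NRF2 antioxidant genes had a median of 0.005, with Hmox1, the haem-degrading enzyme, at 1.08 to 1.63 FPKM in controls and 1.44 to 1.97 FPKM after exposure. Of these 20, 0 passed, and 2 were higher and 0 lower at an unadjusted p under 0.05 (2.51% and 2.84% of all genes). In 4 of them all exposed libraries lay above all controls (3.56% of all genes). Gstm1, 1 of these 4, was at 26.8 to 31.8 FPKM in controls and 32.0 to 35.1 FPKM after exposure (log2 fold change 0.24 ± 0.07, adjusted p = 0.570). Of the 10 aryl hydrocarbon receptor genes 6 were tested, with a median of 0.050, and its target Cyp1b1 was at 4.80 to 5.46 and 4.71 to 5.45 FPKM. Cyp1a1 was too low to be tested, at 0 to 0.0877 and 0.0265 to 0.131 FPKM. Interferon-stimulated genes had a median of 0.097 over 30 tested, 21 of them above 0 (49.3% of all genes). At an unadjusted p under 0.05, 2 of them were higher (2.51% of all genes) and 0 lower.

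**Figure D4:**
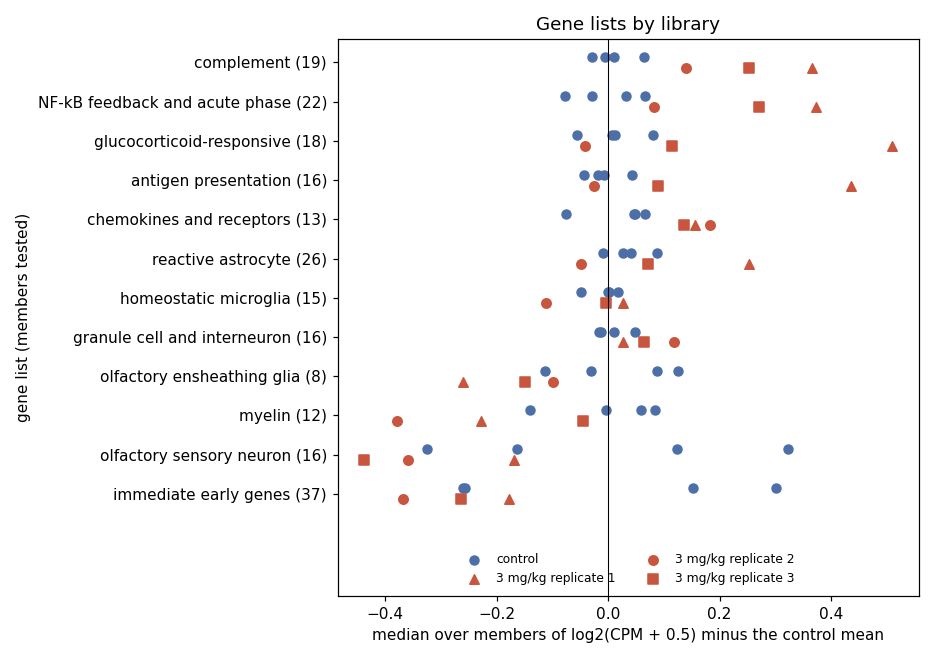
Median over the tested members of each list (number in brackets) of log2(CPM + 0.5) minus the control mean, for each control (blue) and low-dose library (red, 1 symbol a replicate). Low-dose libraries lie right of all controls for complement, acute phase and chemokine genes, low-dose replicate 1 is farthest right for glucocorticoid and antigen presentation genes, and controls spread widely for sensory neuron and immediate early genes.

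Further genes of small p that did not pass and whose groups did not overlap were named up to 12 a direction, passed genes included, so the rule itself gives more lower than higher names. Among the lower were the cell cycle genes Ccnd1 and Ccnd2. Ccnd1 was at 6.30 to 7.27 FPKM in controls and 3.74, 4.08 and 5.02 FPKM after exposure (log2 fold change -0.64 ± 0.11, adjusted p = 0.0854), and Ccnd2 at 5.47 to 7.06 and 4.14 to 5.01 FPKM (-0.46 ± 0.10, adjusted p = 0.282). The transcription factor gene Atf5 was at 13.2 to 16.9 and 9.25 to 11.4 FPKM (-0.53 ± 0.10, adjusted p = 0.101), and Thrb, a thyroid hormone receptor, at 1.06 to 1.24 and 0.851 to 0.890 FPKM (-0.43 ± 0.10, adjusted p = 0.353). Skil, an inhibitor of SMAD signalling, was at 1.32 to 1.98 FPKM in controls and close to 1.14 FPKM in all 3 exposed libraries (1.13 to 1.16 FPKM). The others with lower values were Clvs1, Pnisr, Tdrkh, Tmprss5 and Pdzrn3, with log2 fold changes from -0.88 to -0.34. With higher values, Clcn6, an endosomal chloride transporter, was at 12.3 to 14.02 FPKM in controls and 16.9, 18.3 and 17.0 FPKM after exposure (0.40 ± 0.07, adjusted p = 0.0767), and Galnt15, a glycosyltransferase, at 0.379 to 0.544 and 0.867 to 1.33 FPKM (1.16 ± 0.20, adjusted p = 0.0767).

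The high dose was measured in the 2nd set against its own controls, so dose, set and the sex-linked transcripts differ together and cannot be told apart. Fitted alone, those 6 libraries gave 4 genes of 17097 at an adjusted p under 0.05 (0.0234%): Cxcl10, Acer2, Icam1 and Plin4. Of the 9 genes that passed at the low dose, 8 were tested there and 7 had the same sign. Of these 8, 5 had an unadjusted p under 0.05 (as did 3.82% of all genes upwards and 1.75% downwards). In 6 of the 9 the high-dose libraries lay on the same side of all 2nd-set controls. The share of all genes separated in that way at the high dose was not counted, so nothing is read from that number. Npas4 was at 15.2, 23.8 and 22.2 FPKM in the 2nd-set controls and 4.98, 4.45 and 7.58 FPKM at the high dose (log2 fold change -1.85 ± 0.24). Ccl12 was at 0.361, 0.288 and 0 FPKM there and at 5.15, 15.6 and 7.61 FPKM at the high dose. Hif3a had a log2 fold change of 2.23 ± 0.35, Osmr of 1.63 ± 0.26 and Il4ra of 1.52 ± 0.31. C3 was too low to be tested in the 2nd set alone, at 0.0431 to 0.0572 FPKM in controls and 0.0774, 1.01 and 0.255 FPKM at the high dose.

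Rab7, Atp6ap1 and Sarm1 stood near 0 at the high dose. Their log2 fold changes at the high dose were -0.10 ± 0.16, 0.09 ± 0.18 and 0.08 ± 0.23, with groups that overlapped. Rab7 was at 30.1, 29.9 and 31.6 FPKM in the 2nd-set controls, above all exposed libraries of the 1st set, and Atp6ap1 at 26.6, 43.0 and 39.3 FPKM. The difference between the responses (5.98% of genes at an unadjusted p under 0.05), tested over all 13 libraries with edgeR, was -0.70 for Rab7 (unadjusted p = 0.0012) and -0.60 for Atp6ap1 (unadjusted p = 0.00911), but their adjusted p-values were 0.547 and 0.674. Over 17467 genes the difference passed for 1, Icam1 (0.00573%), which was named after its values were seen. Icam1, the endothelial ligand of leukocyte integrins, was at 1.30, 1.34, 1.26 and 1.78 FPKM in the 1st-set controls and 2.25, 1.76 and 2.57 FPKM at the low dose (log2 fold change 0.63 ± 0.19), where the lowest exposed library and the highest control lay together. In the 2nd set it was at 0.614, 0.496 and 0.554 FPKM in controls and 3.25, 3.95 and 3.68 FPKM at the high dose (2.71 ± 0.23). The high-dose response exceeded the low-dose response by 2.08 on the log2 scale, with an adjusted p of 0.0433 for that difference. Low-dose Icam1 itself did not pass (adjusted p = 0.621). This call was lost when any 1 library of the 1st set was left out. It was also lost without 2nd-set control replicate 2 or 3 and without high-dose replicate 2 or 3.

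Across genes, the sign of low-dose differences was alike at the high dose about as often as not. Of the 900 genes at an unadjusted p under 0.05 at the low dose that were tested at the high dose, 456 had the same sign there (50.7%). Of 421 higher genes, 231 were also above 0 at the high dose (54.9%, against 47.9% of all genes tested at both doses). Of 479 lower genes, 225 were also below 0 (47.0%, against 52.1%).

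**Figure D5:**
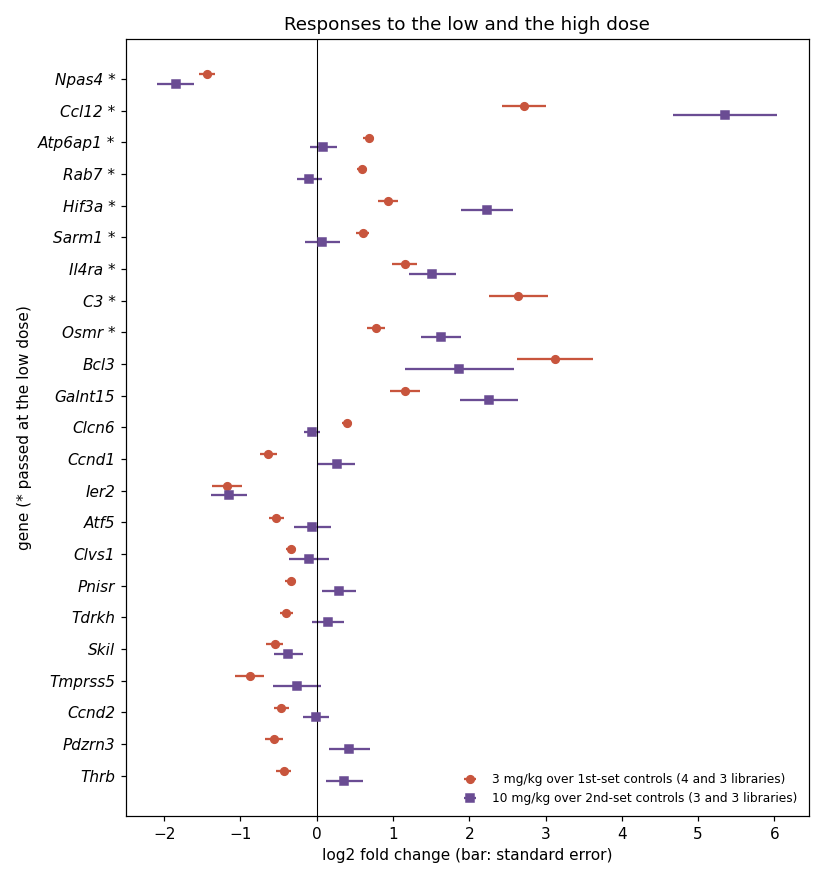
Log2 fold change with its SE for the 9 genes that passed (starred) and 14 named genes that did not, at the low dose over the 1st-set controls (red circles) and at the high dose over the 2nd-set controls (purple squares; C3 was not tested). Npas4, Ccl12, Hif3a, Il4ra and Osmr lie on the same side at both doses, whereas Rab7, Atp6ap1, Sarm1 and Clcn6 lie near 0 at the high dose.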

How the data were processed

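RNA of whole olfactory bulbs was sequenced from stranded total RNA libraries. Reads were aligned with HISAT2 to mm10, per the submitters' processing notes. The counting program and its strand setting are not named in any source used here. The deposited table gives, for each library, whole-number read counts per gene and FPKM values, which equal the deposited count divided by gene length and library total to within a relative deviation of 0.000455. Genes were matched to GENCODE M21 by identifier (34344 of 34745).

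Counts entered edgeR 4.0.16 (R 4.3.3; filterByExpr, TMM factors, robust quasi-likelihood fit, Benjamini-Hochberg adjustment) for the 7 libraries alone. The difference between doses was fitted on all 13. FPKM served as levels, and overlap of groups was judged on TMM-scaled CPM. The SE of a fold change is its log2 value over the root of F. The steps were tested on simulated data. Alternatives were DESeq2 1.42.0, limma 3.58.1, other filters and factors, and each library left out. Replicate libraries differed beyond sampling noise, so none was merged.

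Named genes were those that passed, then genes of smallest p with a mean of at least 1 CPM and no overlap between groups until 12 a direction were named, and leading members of 48 gene lists. A few genes are not reported here. The lists and the comparison were chosen with earlier results of these data known, and they are described by counts and medians without a test. Icam1 and some list members lie outside the rule and were named after their values were seen.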

Additional observations from a re-analysis of the deposited data

Results flagged for a closer look

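Among the 107 groups of 4 controls examined, 5 had 1 library far from the other 3, and chance gives about 1 group in 20. F13a1 was at 1.11 FPKM in control replicate 1, against 0.869 to 0.889 FPKM in the other controls. Pycard, an inflammasome adaptor, was at 0.761 FPKM in control replicate 1, against 0.520 to 0.553 FPKM. Cyp2a5, a cytochrome of the nasal lining, was at 7.495 FPKM in control replicate 1, against 0.161 to 0.518 FPKM. Penk, a neuropeptide precursor, was at 60.5 FPKM in control replicate 3, against 51.0 to 51.6 FPKM. Xist was at 148.5 FPKM in control replicate 4, against 121.7 to 126.2 FPKM.

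The Icam1 response differed between the high dose in the 2nd set and the low dose in the 1st. The log2 difference was 2.08, with an adjusted p of 0.0433 in edgeR's fit of all 13 libraries. Dose, set and the sex-linked transcripts differ together here and cannot be told apart. The call was lost in most fits with a library left out. Controls of the 2 sets also stood apart for Icam1, at 1.26 to 1.78 FPKM in the 1st and 0.496 to 0.614 FPKM in the 2nd.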

How the results depend on the processing

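The low-dose count of 9 genes was the same with RLE factors and with a minimum mean of 1 CPM. It was 41 with DESeq2, 24 with no filter beyond 1 count, 4 with limma-voom, 4 without robust estimation, 3 with limma on log2(FPKM + 1), 3 on log2(FPKM + 0.1), and 0 in the joint fit of 13 libraries, and it ranged from 7 to 13 with a library left out. The count for the difference between doses was 1, and was 15 with DESeq2, 2 with no filter, 0 with limma-voom, 0 on log2(FPKM + 1) (1048 and 1040 genes at an unadjusted p under 0.05), and 0 to 6 with a library left out. Among the fits with a library left out, Icam1 was called only without 2nd-set control replicate 1 and without high-dose replicate 1. With the replicate number as a block, 4 genes passed at the low dose, of which Npas4 was 1 of the 9, and 0 for the difference, with 782 genes at an unadjusted p under 0.05. The numbers did not pair the libraries: deviations of same-numbered libraries correlated at -0.026, 0.048 and -0.00042, and 1 of 3 low-dose libraries correlated best with its own number. No passed gene changed direction under any setting. The fit had 5 residual degrees of freedom. For genes with controls under 1 FPKM, such as C3 and Bcl3, counting error adds to the spread between libraries. Why calls moved was not tested.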

Other observations

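A small group of genes had counts that parted widely between libraries of the same group, whatever the exposure. Of 12851 genes with a mean of at least 5 CPM over the 7 libraries, 70 (0.545%) differed at least 4-fold between the highest and lowest library of 1 group, with 0.5 CPM added to each. None of the 70 passed at the low dose in edgeR's test. Zfp281, a zinc finger factor of stem cells, had 909, 1037, 1 and 973 counts in the controls and 1089, 1080 and 1 after exposure. Cx3cr1, the fractalkine receptor of microglia, had 532, 516, 59 and 45 counts in the controls and 81, 497 and 571 after exposure. Mapt, which encodes tau, had 1231, 5656, 1681 and 4957 counts in the controls and 5184 to 5929 after exposure. Tgfa, a ligand of the EGF receptor, had 164, 200, 163 and 801 counts in the controls and 837, 814 and 825 after exposure, so 3 controls stood at 1 level and the fourth with the exposed libraries. Its adjusted p was 0.932 over all 7 libraries, and it was called when control replicate 4 was left out. The members of the lists among the 70 were Egr2, Ackr1, Cx3cr1, Tlr4 and Col1a1, and their values in single libraries were read with that in view. The cause was not tested.

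Rab7, Atp6ap1, Sarm1 and Clcn6 differed between groups with little spread inside them. The genes annotated within 10000 bases of Rab7, Atp6ap1 and Sarm1 did not pass. Next to the 3' end of Clcn6, the noncoding gene Gm13054 (chromosome 4, 148001091 to 148004014) had 39, 41, 44 and 42 counts in the controls and 20, 12 and 14 after exposure, a log2 fold change of -1.51 (adjusted p = 0.0741 in edgeR's test), while Clcn6 was higher. This neighbour was chosen after its values were seen, and it was called by limma on the FPKM values.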
